A study of Homo sapiens with 8 samples.

Results

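The transcripts of the human chaperonins were examined after JIB-04 treatment of A673, an established line of Ewing Sarcoma cells. The genes were the 8 that encode the subunits of the cytosolic CCT chaperonin (TCP1, CCT2, CCT3, CCT4, CCT5, CCT6A, CCT7 and CCT8) and the pair that encodes the mitochondrial chaperonin HSP60 and its partner HSP10 (HSPD1 and HSPE1). These 10 genes were picked by symbol, for what they encode and with earlier results of these data known, out of 65962 genes with usable values. All 10 were among the 17460 genes tested, whose mean level was at least 1 FPKM (fragments mapped to a gene, scaled by its transcript length and by the size of the library). JIB-04 is a small molecule that inhibits Jumonji-domain histone demethylases broadly, and the study asked how it changes gene expression in Ewing Sarcoma cells. RNA-seq was performed on 4 libraries from cells given 2 μM JIB-04 for 36 hours and on 4 libraries from cells given vehicle (DMSO) for the same time, and no further modification of the line is named for either group. Cells of each group were treated in quadruplicate. The p-values measure the spread between these treated samples of 1 cell line.

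A chaperonin is a barrel of stacked rings that encloses an unfolded protein and uses ATP to help it fold. The CCT chaperonin, also called TRiC, builds each ring from one copy of every subunit and is known for folding actin, tubulin and proteins with WD40 repeats, many of which it receives from prefoldin. HSP60 forms rings of a single subunit in the mitochondrial matrix, HSP10 is the lid of that barrel, and both act beside the mitochondrial HSP70 on proteins imported from the cytosol.

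JIB-04 treatment lowered the level of both mitochondrial chaperonin genes and of 6 of the 8 CCT genes, and raised CCT2 and CCT8. By limma with Benjamini-Hochberg adjustment over all genes tested and a threshold of 0.05, 8 of the 10 genes were lower in JIB-04 (38.0% of all genes tested were lower) and 2 of the 10 were higher (34.2% of all genes tested were higher). In 9 of the 10 genes the JIB-04 libraries and the vehicle libraries did not overlap, which was also so for 67.3% of all genes tested. HSPD1 fell most, by 51.4%, and CCT6A fell most among the CCT genes, by 42.6%. TCP1 and CCT7, with the smallest differences, did not keep their calls under every scaling, as given with their values.

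The libraries of the 2 groups differed broadly. The deposited FPKM summed to between 1175407 and 1237186 in the JIB-04 libraries and to between 1346289 and 1370436 in the vehicle libraries, and the 13 mRNAs of mitochondrial DNA took 3.60% to 4.33% of FPKM in JIB-04 and 9.60% to 10.2% in vehicle. Over all genes tested the median log2 fold change was -0.07 in the FPKM as deposited and 0.08 when every library was rescaled to the same total (TPM, transcripts scaled to a fixed sum), which turned the split of calls to 7061 higher and 5424 lower in place of 5964 higher and 6640 lower. The part of these differences between libraries in the results for the chaperonin genes was not tested, and the values of these genes under TPM are therefore given with their results. All 6 Ewing Sarcoma markers examined were detected in both groups, with CD99 (log2 fold change -0.95), NKX2-2 (-0.77), CCND1 (-0.55) and STEAP1 (-0.21) lower in JIB-04, FLI1 higher (0.24) and NR0B1 (0.15) not passing, although under TPM NR0B1 passed as higher and STEAP1 did not pass. Of 6 markers of other cell types, which summed to 42.1 to 52.3 FPKM in JIB-04 and 12.7 to 16.1 FPKM in vehicle, COL1A1 accounted for nearly all (47.1 FPKM in JIB-04, 13.8 FPKM in vehicle), while PTPRC, EPCAM, ALB and MYH11 averaged at most 0.230 FPKM in either group and PECAM1 averaged 1.29 FPKM in JIB-04 and 0.568 FPKM in vehicle.

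The starts of these genes are shown because HSPD1 and HSPE1 overlap on opposite strands, with starts that lie back to back, and fell together, whereas CCT2 and CCT8 rose while CCT4 fell. In the GENCODE release 29 annotation of GRCh38, the build of the deposited values, HSPD1 (ENSG00000144381) lies at chr2:197486581-197516737 on the minus strand and HSPE1 (ENSG00000115541) at chr2:197499994-197503457 on the plus strand. RefSeq promoter windows on GRCh38.p14, each of 250 bases before to 50 bases after a transcription start, matched 9 of the 10 genes (all but CCT6A), with 12 windows in all. The windows of CCT3 and CCT5, which fell more than CCT4, are not shown and held none of the words marked below. The sequences below run 5′ to 3′ on the strand of the gene, and capitals mark TTCNNGAA and GAANNTTC (the inverted repeats from which heat shock elements are built), CACGTG (the E-box) and CCGGAAG (a site of the ETS type).
HSPD1, chr2:197499791-197500090, minus strand: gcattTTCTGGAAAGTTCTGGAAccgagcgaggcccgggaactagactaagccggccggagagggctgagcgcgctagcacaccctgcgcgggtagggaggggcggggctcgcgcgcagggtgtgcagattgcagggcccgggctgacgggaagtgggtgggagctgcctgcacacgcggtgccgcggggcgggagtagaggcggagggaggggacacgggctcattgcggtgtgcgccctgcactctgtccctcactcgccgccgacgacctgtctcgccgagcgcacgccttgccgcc
HSPE1, chr2:197500129-197500428, plus strand: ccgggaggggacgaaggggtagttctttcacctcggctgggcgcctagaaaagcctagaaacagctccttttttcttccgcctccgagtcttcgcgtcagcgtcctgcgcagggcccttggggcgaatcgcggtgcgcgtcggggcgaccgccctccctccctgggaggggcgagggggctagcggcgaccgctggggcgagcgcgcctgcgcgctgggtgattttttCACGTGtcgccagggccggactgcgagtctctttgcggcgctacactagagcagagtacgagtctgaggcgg
CCT2, chr12:69585209-69585508, plus strand: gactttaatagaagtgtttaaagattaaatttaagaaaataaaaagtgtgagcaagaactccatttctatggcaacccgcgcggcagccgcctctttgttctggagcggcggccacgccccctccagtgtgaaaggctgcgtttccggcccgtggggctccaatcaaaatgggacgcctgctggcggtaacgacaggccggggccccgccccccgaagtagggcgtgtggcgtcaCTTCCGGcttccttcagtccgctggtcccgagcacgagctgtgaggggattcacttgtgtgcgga
CCT8, chr21:29073599-29073898, minus strand: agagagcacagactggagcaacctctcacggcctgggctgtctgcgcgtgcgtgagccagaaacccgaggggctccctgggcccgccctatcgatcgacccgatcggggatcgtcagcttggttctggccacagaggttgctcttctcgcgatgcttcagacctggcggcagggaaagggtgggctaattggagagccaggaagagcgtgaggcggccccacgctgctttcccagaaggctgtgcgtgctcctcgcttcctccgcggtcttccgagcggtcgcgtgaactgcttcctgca
CCT4, chr2:61888607-61888906, minus strand: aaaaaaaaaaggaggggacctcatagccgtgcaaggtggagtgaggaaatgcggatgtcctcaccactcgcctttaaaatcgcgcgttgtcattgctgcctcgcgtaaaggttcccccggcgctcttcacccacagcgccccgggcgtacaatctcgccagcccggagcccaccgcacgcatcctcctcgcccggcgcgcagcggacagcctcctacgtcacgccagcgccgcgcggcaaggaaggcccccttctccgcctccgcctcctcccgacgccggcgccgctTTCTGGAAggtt

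The HSPD1 window was the only one of the 12 with TTCNNGAANNTTC, the longer array of heat shock repeats, here as a run of 2 TTCNNGAA matches with a GAANNTTC match overlapping both. On both strands, TTCNNGAA was found in 7.74% of all 34943 promoter windows, GAANNTTC in 6.79% and TTCNNGAANNTTC in 0.489%. TTCNNGAA was present in windows of 2 of the 9 genes, the other being CCT4, where it lay near the 3′ end of the window. A second window of CCT4, at chr2:61888622-61888921, did not hold it. GAANNTTC was present in windows of 3 genes (HSPD1, TCP1 and a second window of CCT2).

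The HSPE1 window held CACGTG, a word found in 7.23% of all windows. A second window of HSPD1, at chr2:197500225-197500524, shared 204 bases with the HSPE1 window and held the same CACGTG, whereas the first HSPD1 window shared 0 bases with the HSPE1 window. The CCT2 window held CCGGAAG, on its minus strand, a word of 10.2% of all windows that no other of these genes had. CCAAT was found in windows of 4 genes (CCT2, CCT3, CCT8 and TCP1) and in 34.6% of all windows, and TGATGNAA, a word bound by C/EBP and ATF factors, was found in 0 of the 9 genes and in 3.62% of all windows. These matches describe the letters only, and none of them was tested against the change in level.

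HSPD1 encodes HSP60, the barrel of the mitochondrial chaperonin. It was measured at 569, 501, 537 and 558 FPKM in JIB-04 libraries 1 to 4, against 1010, 1131, 1091 and 1224 FPKM in vehicle libraries 1 to 4. Every JIB-04 library was far below every vehicle library. The means were 541 ± 29.9 FPKM in JIB-04 and 1114 ± 88.9 FPKM in vehicle (SD, n = 4 each), a log2 fold change of -1.04 with a standard error of 0.06 (adjusted p = 4.89e-07 by limma with Benjamini-Hochberg adjustment). In order of level HSPD1 was gene 351 of all genes in JIB-04 and gene 162 in vehicle.

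HSPE1 encodes HSP10, the lid that closes over HSP60. Its level was 342, 340, 366 and 373 FPKM in JIB-04 libraries 1 to 4, against 496, 557, 533 and 560 FPKM in vehicle libraries 1 to 4. The groups did not overlap. The means were 355 ± 16.9 FPKM in JIB-04 and 536 ± 29.6 FPKM in vehicle, a fall of 33.8%, with a log2 fold change of -0.59 and a standard error of 0.05 (limma, Benjamini-Hochberg adjusted p = 4.98e-06).

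The lid gene fell less than the barrel gene. The ratio of HSPE1 to HSPD1 was 0.657 ± 0.0383 in JIB-04 and 0.482 ± 0.0166 in vehicle (SD, n = 4 each), and did not overlap between the groups. This ratio is taken within a library, so that scaling a library as a whole does not change it. The HSPE1-MOB4 readthrough transcript, which starts 139 bases from HSPD1, was at 15.9 ± 2.85 FPKM in JIB-04 and 13.1 ± 4.80 FPKM in vehicle and did not pass the test (log2 fold change 0.34 with a standard error of 0.27, adjusted p = 0.284 by limma).

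HSPE1 is short and has many processed copies in the genome, as has HSPD1, and reads of a gene and of a near-identical copy can be split between them by the counting, which makes the absolute levels uncertain. The FPKM of the 26 annotated HSPE1 pseudogenes summed to 369 ± 30.8 in JIB-04 and 593 ± 34.8 in vehicle, or 50.9% and 52.5% of the total of gene and pseudogenes, shares that overlapped between the groups. The copy with the highest level, HSPE1P2, was at 225 FPKM in JIB-04 and 346 FPKM in vehicle. For HSPD1, with 16 pseudogenes, the share was 11.6% in JIB-04 and 10.9% in vehicle, mostly from HSPD1P1 (59.3 FPKM in JIB-04, 114 FPKM in vehicle). With the pseudogene FPKM added to the gene, the log2 fold change was -0.64 for HSPE1 and -1.03 for HSPD1. The ratio of HSPE1 to HSPD1 was not taken with the pseudogene FPKM added, so its absolute value in each group is uncertain.

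**Figure D1:**
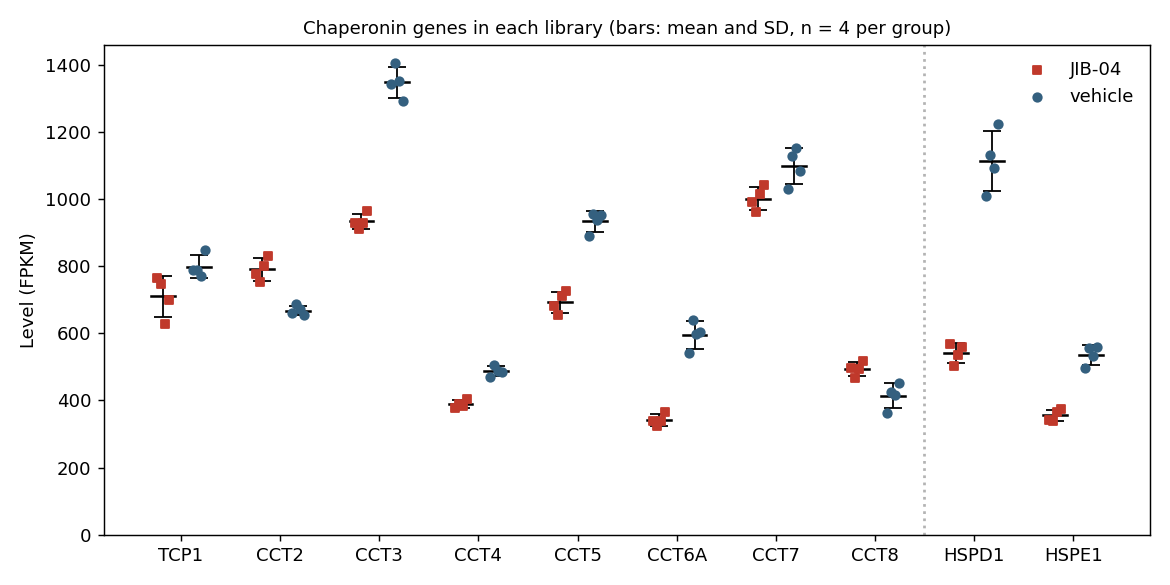
Level in FPKM (vertical axis, linear from 0) of the 10 chaperonin genes (horizontal axis) in each JIB-04 library (squares, left) and each vehicle library (circles, right), with the mean and SD of the 4 libraries of each group. HSPD1 sits at 501 to 569 FPKM in JIB-04 and at 1010 to 1224 FPKM in vehicle, CCT2 and CCT8 are higher in JIB-04, and only CCT7 has groups that overlap.

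Among the CCT genes, CCT6A, which encodes the zeta subunit, fell most. It lies at chr7:56051630-56063989 on the plus strand (ENSG00000146731). Its level was 339, 323, 339 and 365 FPKM in JIB-04 libraries 1 to 4, against 540, 640, 599 and 603 FPKM in vehicle libraries 1 to 4. No JIB-04 library came near the lowest vehicle library. The means of 342 ± 17.4 FPKM in JIB-04 and 595 ± 41.2 FPKM in vehicle gave a log2 fold change of -0.80 with a standard error of 0.06 (limma, Benjamini-Hochberg adjusted p = 1.53e-06). Its paralog CCT6B, known as the testis form, was at 0.440 FPKM in JIB-04 and 0.342 FPKM in vehicle, under the level needed for a test.

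CCT3, the gamma subunit (ENSG00000163468, chr1:156308968-156367873, minus strand), had the highest level of all CCT genes in vehicle. It was at 929, 911, 929 and 964 FPKM in JIB-04 libraries 1 to 4, against 1342, 1406, 1352 and 1291 FPKM in vehicle libraries 1 to 4. The JIB-04 libraries lay close together and well below the vehicle libraries. The means were 933 ± 22.2 FPKM in JIB-04 and 1348 ± 47.0 FPKM in vehicle (log2 fold change -0.53 with a standard error of 0.03, adjusted p = 8.39e-07 by limma), a fall of 30.7%.

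CCT5, the epsilon subunit, in which mutation causes a hereditary sensory neuropathy, fell by 25.9%. It lies at chr5:10249921-10266412 on the plus strand (ENSG00000150753). Its level was 680, 654, 710.2 and 725 FPKM in JIB-04 libraries 1 to 4, against 889, 955, 939 and 952 FPKM in vehicle libraries 1 to 4. The groups did not overlap, and the means were 692 ± 31.6 FPKM in JIB-04 and 934 ± 30.4 FPKM in vehicle (log2 fold change -0.43 with a standard error of 0.04, adjusted p = 1.13e-05 by limma).

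CCT4, the delta subunit (ENSG00000115484, chr2:61868089-61888804, minus strand), fell by 20.1%. It was at 376, 389, 385 and 405 FPKM in JIB-04 libraries 1 to 4, against 469.8, 506, 487 and 484 FPKM in vehicle libraries 1 to 4. All JIB-04 libraries were below all vehicle libraries. The means were 389 ± 12.04 FPKM in JIB-04 and 487 ± 14.985 FPKM in vehicle (log2 fold change -0.32 with a standard error of 0.04, adjusted p = 3.59e-05 by limma).

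CCT2, the beta subunit (ENSG00000166226, chr12:69585334-69601570, plus strand), went the other way. Its level was 776, 753, 801 and 831 FPKM in JIB-04 libraries 1 to 4, against 659, 686, 671 and 655 FPKM in vehicle libraries 1 to 4. All 4 JIB-04 libraries were above all 4 vehicle libraries. The means were 790.1 ± 33.5 FPKM in JIB-04 and 668 ± 14.2 FPKM in vehicle, 1.18-fold higher, with a log2 fold change of 0.24 and a standard error of 0.04 (limma, Benjamini-Hochberg adjusted p = 0.000303).

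CCT8, the theta subunit (ENSG00000156261, chr21:29055805-29073797, minus strand), also rose. It was at 496, 468, 492 and 518 FPKM in JIB-04 libraries 1 to 4, against 363, 426, 415 and 452 FPKM in vehicle libraries 1 to 4. The groups did not overlap, although the highest vehicle library was close to the lowest JIB-04 library. The means were 493 ± 20.5 FPKM in JIB-04 and 414 ± 37.4 FPKM in vehicle, 1.19-fold higher (log2 fold change 0.26 with a standard error of 0.07, adjusted p = 0.00605 by limma). CCT8P1, its processed pseudogene, was also higher, at 132 FPKM in JIB-04 and 113 FPKM in vehicle, and took 21.2% of the total of gene and pseudogene in JIB-04 and 21.6% in vehicle.

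TCP1, the alpha subunit and the founding member of the family (ENSG00000120438, chr6:159778498-159789749, minus strand), differed little. It was at 765, 748, 628 and 699 FPKM in JIB-04 libraries 1 to 4, against 789, 788, 770.1 and 849 FPKM in vehicle libraries 1 to 4. JIB-04 library 3 was the lowest, and the highest JIB-04 library lay just under the lowest vehicle library. The means were 709.9 ± 61.7 FPKM in JIB-04 and 799 ± 34.5 FPKM in vehicle (log2 fold change -0.17 with a standard error of 0.06, adjusted p = 0.0335 by limma). The call was lost when JIB-04 library 3 or 4, or vehicle library 1, 2 or 4, was left out (adjusted p of 0.0593, 0.0718, 0.0516, 0.0559 and 0.0862 in that order), and under TPM the log2 fold change was -0.01 (adjusted p = 0.889).

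CCT7, the eta subunit (ENSG00000135624, chr2:73233420-73253021, plus strand), was the only one of the 10 genes whose groups overlapped. It was at 990.4, 960.3, 1014 and 1041 FPKM in JIB-04 libraries 1 to 4, against 1031, 1127, 1153 and 1083 FPKM in vehicle libraries 1 to 4. Vehicle library 1 lay below JIB-04 library 4. The means were 1002 ± 34.5 FPKM in JIB-04 and 1099 ± 53.6 FPKM in vehicle (log2 fold change -0.13 with a standard error of 0.04, adjusted p = 0.0202 by limma). The exact two-sided permutation test over the 8 libraries gave p = 0.0571 for CCT7, and p = 0.0286, the smallest that 4 against 4 libraries can give, for each of the other 9 genes. Without JIB-04 library 2, or without vehicle library 2 or 3, the call for CCT7 was lost (limma adjusted p of 0.0578, 0.0547 and 0.0623 in that order), and its direction turned under TPM (log2 fold change 0.03, adjusted p = 0.551) and under quantile scaling (0.02, adjusted p = 0.642).

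The other 8 genes kept their direction and their call under each of the 19 alternatives run. Under TPM, the scaling that moved the median of all genes upward most, CCT2 had a log2 fold change of 0.41, CCT3 of -0.36, CCT4 of -0.16, CCT5 of -0.27, CCT6A of -0.63, CCT8 of 0.42, HSPE1 of -0.43 and HSPD1 of -0.87. TPM, median-ratio and quantile scaling each gave 2 of the 10 genes higher and 6 lower. Of all genes tested, 40.4% were higher and 31.1% lower under TPM, 36.2% higher and 35.4% lower under median-ratio scaling, and 34.0% higher and 38.4% lower under quantile scaling. In bulk libraries such as these, fewer cells expressing a gene and less of its RNA in each cell cannot be told apart.

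**Figure D2:**
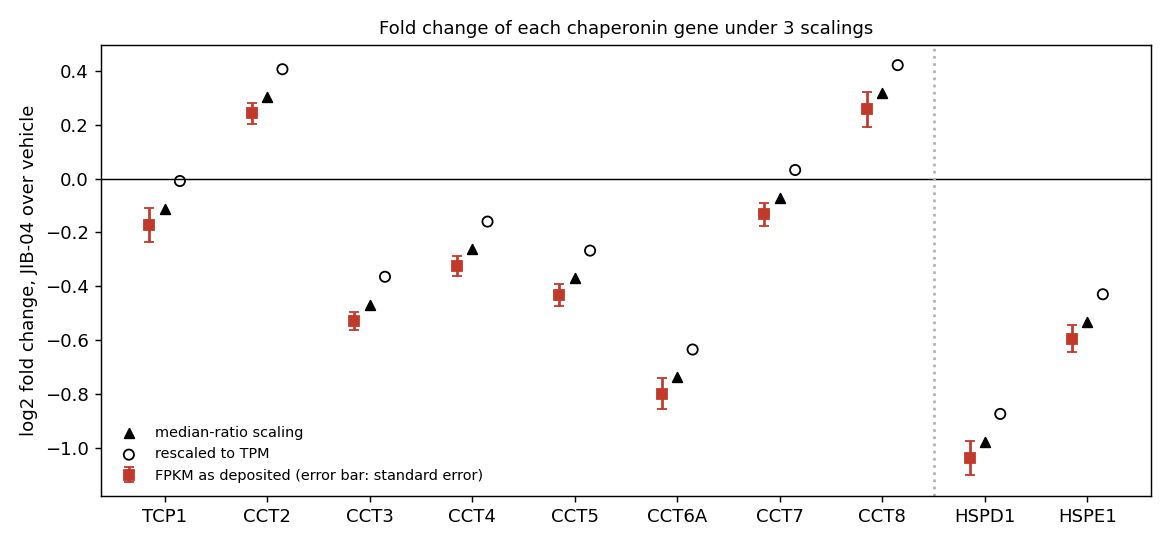
log2 fold change, JIB-04 over vehicle (vertical axis), of the 10 chaperonin genes (horizontal axis) in the FPKM as deposited (squares, with the standard error of limma's fit), after median-ratio scaling (triangles) and after rescaling to TPM (open circles). The 3 scalings shift all genes together, so that TCP1 (-0.17 in FPKM, -0.01 in TPM) and CCT7 (-0.13 in FPKM, 0.03 in TPM) reach 0, while HSPD1 stays lowest and CCT2 and CCT8 stay above 0.

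Because CCT is built from equal numbers of its subunits, the proportions between the transcripts were also compared, as a description with no test. FPKM is corrected for transcript length, so levels of different genes can be set side by side. The summed level of the 8 genes was 5351 ± 144 FPKM in JIB-04 and 6343 ± 189 FPKM in vehicle (SD, n = 4 each) with no overlap. As a share of all FPKM of the library it was 0.442 ± 0.0156% in JIB-04 and 0.467 ± 0.0118% in vehicle, and these shares overlapped.

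The order of the subunits changed. In JIB-04 it was CCT7, CCT3, CCT2, TCP1, CCT5, CCT8, CCT4 and CCT6A from highest to lowest, and in vehicle it was CCT3, CCT7, CCT5, TCP1, CCT2, CCT6A, CCT4 and CCT8. In JIB-04 the libraries of CCT7 and CCT3, of CCT2 and TCP1, and of TCP1 and CCT5 overlapped in level, so the order of these neighbours is not separated by the spread. In vehicle no neighbours in the order overlapped. This order is uncertain where pseudogenes take part of the reads. With the pseudogene FPKM added, CCT8 was at 626 ± 22.8 FPKM in JIB-04 and 527 ± 36.7 FPKM in vehicle, and CCT4 at 391 ± 12.1 FPKM in JIB-04 and 489 ± 14.6 FPKM in vehicle, so that CCT8 was no longer the lowest in vehicle and overlapped with CCT4 there. CCT6A was then at 391 ± 17.7 FPKM in JIB-04 and 671 ± 37.4 FPKM in vehicle, and overlapped with CCT4 in JIB-04 and with CCT2 in vehicle.

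CCT3 fell to 17.4 ± 0.0871% of the CCT transcripts in JIB-04, against 21.3 ± 0.750% in vehicle, and CCT6A to 6.38 ± 0.157% in JIB-04, against 9.38 ± 0.378% in vehicle. The share of CCT2 was 14.8 ± 0.334% in JIB-04 and 10.5 ± 0.229% in vehicle, and that of CCT8 was 9.22 ± 0.160% in JIB-04 and 6.52 ± 0.461% in vehicle. CCT5 had 12.9% in JIB-04 and 14.7% in vehicle, and CCT4 had 7.27% in JIB-04 and 7.68% in vehicle. CCT7, whose level was lower in JIB-04, had a larger share there, with 18.7% in JIB-04 and 17.3% in vehicle. None of these 7 shares overlapped between the groups, whereas the share of TCP1 did (13.3% in JIB-04, 12.6% in vehicle). By level, 67.3% of all genes tested did not overlap, and no such background was made for shares. The shares of a library add up to a fixed total, so smaller shares of some subunits raise those of others, whatever their levels.

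Ratios between subunits that went opposite ways show the size of the shift. The ratio of CCT2 to CCT6A was 2.31 ± 0.0393 in JIB-04 and 1.13 ± 0.0669 in vehicle, and that of CCT8 to CCT4 was 1.27 ± 0.0489 in JIB-04 and 0.849 ± 0.0658 in vehicle. With the pseudogene FPKM added, the ratio of CCT8 to CCT4 was 1.60 in JIB-04 and 1.08 in vehicle, and that of CCT2 to CCT6A was 2.02 in JIB-04 and 0.996 in vehicle, again without overlap between the groups. These pairs were chosen after their values were seen. The coefficient of variation across the 8 subunits was 36.5 ± 0.564% in JIB-04 and 40.4 ± 2.04% in vehicle, so the levels were slightly closer to each other in JIB-04. The groups did not overlap, but the highest JIB-04 library (37.3%) came close to the lowest vehicle library (37.6%). This coefficient was not taken with the pseudogene FPKM added. The ratio of the highest to the lowest subunit (2.93 in JIB-04, 3.28 in vehicle) overlapped.

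**Figure D3:**
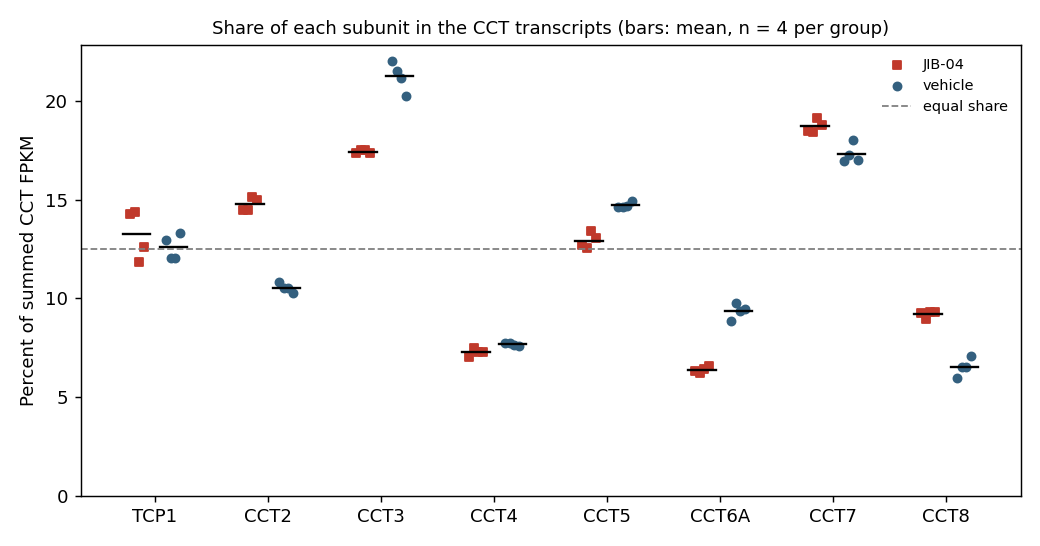
Percent of the summed CCT FPKM (vertical axis, from 0) held by each subunit (horizontal axis) in each JIB-04 library (squares, left) and each vehicle library (circles, right), with the mean of 4 libraries as a bar and an equal share as a dashed line. CCT2 and CCT8 hold larger shares in JIB-04 and CCT3, CCT5 and CCT6A smaller ones, while the shares of TCP1 overlap.

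The pseudogenes of the CCT genes were few beside those of HSPE1. They took 12.7% of the total of gene and pseudogenes for CCT6A in JIB-04 and 11.4% in vehicle, 9.26% for TCP1 in JIB-04 and 8.83% in vehicle, and 7.84% for CCT5 in JIB-04 and 7.85% in vehicle. For CCT7 the share was 3.27% in JIB-04 and 3.24% in vehicle, for CCT4 it was 0.455% in JIB-04 and 0.497% in vehicle, and CCT2 and CCT3 had no pseudogene matched by name. Of 54 pseudogenes of the 10 genes, 24 could be tested and 17 were lower, 3 higher (CCT8P1, CCT6P1 and CCT6P3) and 4 did not pass. Among all genes tested 38.0% were lower and 34.2% higher. Copies of HSPE1 gave 7 of the lower calls and copies of HSPD1 gave 5. CCT6P1 (log2 fold change 1.09) and CCT6P3 (0.86) rose while their parent CCT6A fell, whereas CCT6P2 (-0.88) and CCT6P4 (-0.60) fell with it. Reads can be split between a gene and its copies, so the calls of copies may not be separate from those of the parent genes. With the pseudogene FPKM added, the log2 fold change was -0.78 for CCT6A, 0.25 for CCT8 and -0.17 for TCP1.

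Several of these genes share a start region with a gene on the other strand. Within 2000 bases upstream, such a partner was found for TCP1, CCT3, CCT5, CCT6A, CCT7, HSPD1 and HSPE1 and not for CCT2, CCT4 or CCT8. Distances are those between the nearest annotated starts of protein-coding transcripts that face away from each other. HSPD1 and HSPE1 are each other's partner, with such starts at 197500047 for HSPD1 and 197500140 for HSPE1, 93 bases apart, and both fell. Each of them also has other annotated starts, so the gene extents overlap and the promoter windows lie at other distances. FAM173B, 24 bases from CCT5, was at 15.5 ± 1.21 FPKM in JIB-04 and 30.6 ± 1.55 FPKM in vehicle (log2 fold change -0.96, limma adjusted p = 1.75e-06) and so fell with CCT5. PSPH, the last enzyme of serine synthesis, starts 26 bases from CCT6A and did not pass the test (94.4 ± 6.53 FPKM in JIB-04, 104 ± 5.17 FPKM in vehicle, log2 fold change -0.13, limma adjusted p = 0.0705), although CCT6A fell by 42.6%. Under TPM the log2 fold change was 0.03 for PSPH and -0.80 for FAM173B.

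MRPL18, a protein of the mitochondrial ribosome 717 bases from TCP1, was lower (log2 fold change -0.38, limma adjusted p = 4.75e-05), as was PRADC1, 1008 bases from CCT7 (log2 fold change -0.41, limma adjusted p = 0.000335). With TPM these log2 fold changes were -0.22 for MRPL18 and -0.24 for PRADC1. Of all genes tested, 38.0% were lower in the FPKM as deposited and 31.1% under TPM. TSACC, 38 bases from CCT3, was at 0.596 FPKM in JIB-04 and 0.661 FPKM in vehicle and was not tested.

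The genes around the chaperonins were then described by list, with the median (-0.07) and the shares of calls (34.2% higher, 38.0% lower) over all genes tested as background, and no test was made over any list. The relatives of CCT that help to assemble the BBSome, a complex of the cilium, split: MKKS was lower (log2 fold change -0.46, limma adjusted p = 9.65e-05), BBS12 was higher (0.95, adjusted p = 0.000249), and BBS10 had 4.79 FPKM in JIB-04 and 5.46 FPKM in vehicle and did not pass.

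Prefoldin, which hands new actin and tubulin chains to CCT, had 1 of its 6 subunits higher and 1 lower (median log2 fold change -0.06 in FPKM and 0.10 in TPM). PFDN2 rose to 462 ± 25.3 FPKM in JIB-04, against 317 ± 5.58 FPKM in vehicle (log2 fold change 0.54, limma adjusted p = 3.25e-06). PFDN6 fell to 88.9 ± 2.68 FPKM in JIB-04, against 129 ± 13.8 FPKM in vehicle (log2 fold change -0.53, limma adjusted p = 0.000159). PFDN1 (0.14), VBP1 (-0.17), PFDN4 (-0.05) and PFDN5 (-0.08) did not pass, but PFDN1 passed as higher under TPM and median-ratio scaling, and the sign for PFDN4 and PFDN5 depended on the scaling.

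In the related prefoldin-like complex PDRG1 rose to 84.0 ± 4.13 FPKM in JIB-04, against 39.2 ± 1.13 FPKM in vehicle (log2 fold change 1.09, limma adjusted p = 8.42e-08), whereas UXT (-0.35) and URI1 (-0.18) were lower. Of the phosducin-like cofactors of CCT, PDCL3 was lower (-0.59, limma adjusted p = 0.000171), as was PDCL, which serves the G protein beta subunits (-0.29, adjusted p = 0.00446), and TXNDC9 (0.13) did not pass. Under TPM UXT and PDCL3 passed as lower, while URI1 (log2 fold change -0.02, limma adjusted p = 0.813) and PDCL (-0.13, adjusted p = 0.134) did not pass. The libraries of URI1 overlapped between the groups, and it did not pass under median-ratio scaling either (limma adjusted p = 0.163).

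Of the genes of proteins that CCT folds, tubulin, actin and WD40 genes were examined. Of 12 tubulin genes 8 were lower, 3 higher and 1 did not pass, with a median log2 fold change of -0.53 (-0.37 in TPM, where 4 were higher and 8 lower), against 38.0% lower and 34.2% higher among all genes. TUBA1B fell to 1351 ± 33.4 FPKM in JIB-04, against 3876 ± 155 FPKM in vehicle (log2 fold change -1.52, limma adjusted p = 2.79e-09), and TUBB by a similar amount (-1.49). TUBB2A (1.38) and TUBA1A (0.82) were the largest rises.

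Of 5 actin and actin-related genes ACTB (-0.91), ACTG1 (-0.56) and ACTR1A (-0.91) were lower, ACTR2 was higher (0.29) and ACTR3 (0.08) did not pass, except as higher under TPM and quantile scaling. The libraries of ACTR2 overlapped between the groups. ACTB, the main cytoplasmic actin, was at 3344 ± 170 FPKM in JIB-04 and 6305 ± 554 FPKM in vehicle (limma adjusted p = 1.12e-06). Of 10 genes of WD40 proteins 8 were lower, 1 was higher and 1 did not pass, with a median of -0.62, against 38.0% lower and 34.2% higher among all genes (7 were lower under TPM, where 31.1% of all genes were). CDC20, which activates the anaphase-promoting complex at mitosis, fell to 35.8 ± 1.70 FPKM in JIB-04, against 231 ± 10.4 FPKM in vehicle (log2 fold change -2.67, limma adjusted p = 8.17e-10), followed by MLST8, a subunit of the mTOR complexes (-1.31). The gene that rose was PPP2R2A, a regulatory subunit of the phosphatase PP2A (1.20).

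The cofactors that assemble tubulin after CCT releases it had a median of -0.58. TBCB (-1.14), TBCD (-1.01) and the GTPase ARL2 (-1.35) were lower, TBCC was higher (0.55), and TBCA (0.12) and TBCE (-0.15, with a sign that depended on the scaling) did not pass, although TBCA passed as higher under TPM, median-ratio and quantile scaling.

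In mitochondria HSPA9 moved against HSPD1. HSPA9, the HSP70 that draws proteins into the matrix ahead of HSP60, rose to 1153, 1195, 1129 and 1100 FPKM in JIB-04 libraries 1 to 4, against 681, 731, 728 and 738 FPKM in vehicle libraries 1 to 4. No library of the 2 groups overlapped, in the opposite direction to HSPD1. The means were 1144 ± 40.0 FPKM in JIB-04 and 719.5 ± 26.2 FPKM in vehicle (log2 fold change 0.67, limma adjusted p = 3.87e-07), and the ratio of HSPA9 to HSPD1 was 2.12 ± 0.183 in JIB-04 and 0.648 ± 0.0319 in vehicle.

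Of the 7 genes of this system 3 were higher, 3 lower (2 under TPM) and 1 did not pass. GRPEL2, a nucleotide exchange factor of HSPA9, was also higher (0.57), while TRAP1, the mitochondrial HSP90 (-0.68), and DNLZ, which keeps HSPA9 soluble (-0.54), were lower. Of 8 mitochondrial protease genes 2 were higher (3 under TPM), 4 lower and 2 did not pass, with YME1L1 (0.60) and CLPX (0.43) higher and OMA1 (-1.19) and HTRA2 (-1.14) falling most.

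Of 4 transcription factors of the mitochondrial and integrated stress responses, DDIT3 (CHOP) rose to 686 ± 7.49 FPKM in JIB-04, against 75.3 ± 4.28 FPKM in vehicle (log2 fold change 3.18, limma adjusted p = 2.38e-10), and ATF4 was higher (0.84). ATF5 (-0.12, with a sign that depended on the scaling) and CEBPB (-0.17) did not pass.

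The cytosolic HSP70 and HSP90 genes and their partners moved both ways, with 3 of 12 higher, 7 lower and 2 that did not pass (under TPM 5 were higher and 5 lower). HSPA8, the constitutive cytosolic HSP70, fell to 2740 ± 82.1 FPKM in JIB-04, against 5613 ± 140 FPKM in vehicle (log2 fold change -1.03, limma adjusted p = 1.09e-08), and BAG2 also fell (-0.998), whereas HSPH1 (0.88) and ST13 (0.55) were higher. Of HSF1 and 8 other genes of the heat shock response 6 were higher and 3 lower, with a median of 0.88. Among all genes tested 34.2% were higher and 38.0% lower. HSF1 itself was lower (log2 fold change -0.39, limma adjusted p = 0.00126). CRYAB rose to 70.7 ± 10.2 FPKM in JIB-04, against 3.996 ± 0.998 FPKM in vehicle (log2 fold change 4.001, limma adjusted p = 4.86e-08), HSPA1A was higher (1.26), and HSPB1 (-1.85) and DNAJB1 (-0.55) were lower. HSPH1 and DNAJB1 stand in both of these lists.

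**Figure D4:**
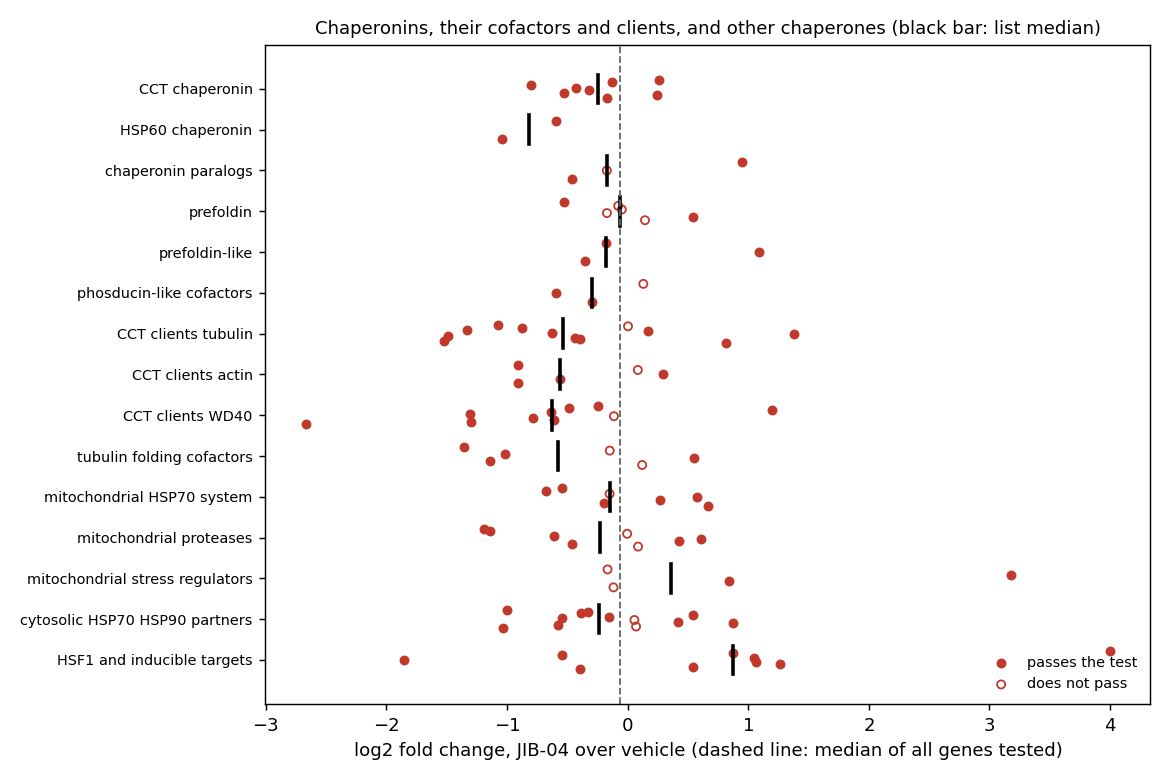
log2 fold change, JIB-04 over vehicle (horizontal axis), of each tested gene of the chaperonins and of the lists around them (rows), filled where limma's adjusted p is under 0.05 and open where it is not, with the median of each list as a black bar and that of all genes tested (-0.07) as a dashed line. Both HSP60 chaperonin genes are left of the line, the CCT genes stand on both sides of it, and the tubulin, actin and WD40 client lists have medians between -0.62 and -0.53.

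The genes whose level over the 8 libraries was most like the mean of the 8 CCT genes were OCRL (Pearson's r = 0.998), TCEB3 (0.996), ACO1 (0.996), HNRNPAB (0.996) and SAMM50 (0.995), out of 12576 genes that averaged 5 FPKM or more. The 8 points fall into 2 groups that differ in level, and 966 genes reached an r of 0.95 or more, so the values are a description of a common difference between the groups.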

How the data were processed

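RNA-seq libraries of A673 cells treated with JIB-04 or vehicle, 4 in each group, were analyzed. The authors prepared directional mRNA libraries, aligned the reads to GRCh38 with GSNAP (version 2014-12-17), processed the alignments with SAMtools and calculated FPKM with Cufflinks, and the deposited FPKM were used without further normalization. The paper's methods and the labels give different read lengths. FPKM corrects for depth and transcript length but not for a change in the makeup of the RNA, and it splits reads shared by a gene and its pseudogenes in a way that cannot be checked from the table.

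The table had 66095 entries for 65975 Ensembl identifiers. Entries of the 117 identifiers with more than 1 were summed, 33 symbols stored as dates were restored, and 13 genes with a placeholder value were left out. The test was limma (version 3.58.1, under R version 4.3.3) on log2 of FPKM plus 0.5, for genes averaging 1 FPKM or more, with lmFit and a trended eBayes, without covariates, with Benjamini-Hochberg adjustment over all genes and a threshold of 0.05. Fold changes on this scale slightly understate those of low genes. Exact two-sided permutation tests were run over the 8 libraries. The fit was tested on simulated data in which few genes changed and the libraries had equal scale. That setting differs from these libraries, so it does not test the effect of scaling.

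Absolute depth is unknown from FPKM. The steps between low values put the depth of the libraries at 0.775 to 0.926 of that of vehicle library 1 in JIB-04 and at 0.828 to 0.955 in the other vehicle libraries, and precision therefore rests on how far libraries of a group spread. Correlations within a group were 0.977 to 0.984 in JIB-04 and 0.9794 to 0.9851 in vehicle, and no 2 libraries were copies of each other.

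Alternatives were pseudocounts of 0.1 and 1, no filter, a filter of 5 FPKM, TPM, median-ratio and quantile scaling, analysis of variance of FPKM (the authors' test), a replicate block, the highest entry per identifier and each library left out. Adding pseudogene FPKM was chosen after seeing the data. The members and lists were chosen with earlier results of these data known. All 10 members were named, with all measured genes of lists of at most 6 and otherwise the 2 largest rises and 2 largest falls that passed, all partners within 2000 bases and the 5 genes with the highest correlation with the CCT mean. HSF1 was named in addition. Motifs, the ratios between subunits and the pseudogenes named were chosen after the values or sequences were seen. Coordinates came from GENCODE release 29 and promoter windows from RefSeq on GRCh38.p14. Python 3.11.15 was used with pandas 2.3.3, numpy 2.4.6 and, for plots, matplotlib 3.10.9.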

Additional observations from a re-analysis of the deposited data

Results flagged for a closer look

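The 30 groups of 4 libraries examined came from the levels of the 10 genes and from quantities formed from them. Not all levels, shares and ratios given above were among them. Of these 30 groups, 2 held a library far from the rest, and about 1 in 20 such groups is picked out by chance. Both concern the ratio of HSPE1 to HSPD1. It was 0.600 in JIB-04 library 1, below the next JIB-04 library at 0.668, a gap of 0.838 of the group's range. It was 0.458 in vehicle library 4, below the next vehicle library at 0.488, a gap of 0.881 of the range. JIB-04 library 1 was still above every vehicle library.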

How the results depend on the processing

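CCT2, CCT3, CCT4, CCT5, CCT6A, CCT8, HSPD1 and HSPE1 kept direction and call under all 19 alternatives. TCP1 kept its call in 9 and lost it in 10, with log2 fold changes of -0.21 to -0.12 when 1 library was left out (adjusted p 0.0173 to 0.0862), and with an adjusted p of 0.0699 without a filter, 0.0638 by analysis of variance, 0.089 with median-ratio and 0.712 with quantile scaling. CCT7 kept its call in 13 and lost it in 4, among them median-ratio scaling (adjusted p = 0.252), and its direction turned under TPM (log2 fold change 0.0318, adjusted p = 0.551) and quantile scaling (0.0196, adjusted p = 0.642). When 1 library was left out its log2 fold change was -0.16 to -0.11. The cause of these changes was not tested beyond the shift in scale that TPM applies to all genes. The summed CCT level had a log2 ratio of -0.25 in FPKM, -0.0804 in TPM and -0.26 to -0.23 when 1 library was left out. With pseudogene FPKM added, the ratio of CCT8 to CCT4 was 1.60 in place of 1.27 in JIB-04 and 1.08 in place of 0.849 in vehicle, and that of CCT2 to CCT6A was 2.02 in place of 2.31 in JIB-04 and 0.996 in place of 1.13 in vehicle.

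Same-numbered libraries did not deviate together (correlations of -0.06 to 0.08, against -0.14 to 0.10 for different numbers). Whether same-numbered libraries were prepared together is not known from the labels, and these correlations cannot decide it. With the replicate number as a block 5900 genes were higher and 6618 lower, and 2 of the 10 chaperonin genes were higher and 8 lower. Depth limits genes of low level, such as CCT6B and TSACC, which were not tested, and not the 10 genes themselves, which were at 323 FPKM or more in every library.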
